A study of Homo sapiens with 14 samples.

Results

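The transcripts described here are those of 9 genes of MHC class I antigen presentation, chosen by symbol: HLA-B, HLA-C, HLA-E, B2M, TAP1, TAP2, TAPBP, PSMB8 and PSMB9. All 9 had a row in each of the 3 deposited tables, among 13720 gene symbols that the tables share. Class I molecules show peptides from inside the cell to CD8 T cells and natural killer cells. Peptides are cut by the proteasome, in which the interferon-inducible subunits PSMB8 and PSMB9 can take the place of constitutive ones, pumped into the endoplasmic reticulum by TAP1 and TAP2, and loaded with the help of tapasin (TAPBP) onto a heavy chain paired with beta-2-microglobulin (B2M). Interferons raise many of these genes, and the coactivator NLRC5 raises some of them. Repression of class I genes by EZH2, the catalytic subunit of the Polycomb complex that methylates histone H3 at lysine 27, is known from several tumour types.

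The study measured total RNA of 2 human leukaemia lines by RNA sequencing, with 14 libraries in 7 groups of 2. MV4;11, an acute myeloid leukaemia line with an MLL rearrangement, carried either a hairpin against EZH2 (shEZH2) with the control EV, or guide 1 or guide 5 against MYC (sgcMyc) with the control sgEV. EOL-1, a line from an eosinophilic leukaemia, carried a guide against EZH2 (sgEZH2) or the control sgEV. Every group, controls included, had received 1 µg/ml doxycycline for 4 days, so no group shows the cells without the drug. The labels say neither whether a group was 1 clone or a pool nor whether its 2 libraries were separate cultures. The p-values therefore rest on the spread between libraries alone, which may be technical. In bulk RNA, a change in the share of cells that carry a transcript and a change in its amount per cell cannot be told apart.

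EZH2 was at 73.3 and 75.8 CPM (counts scaled to library size) in EV and at 9.70 and 9.75 CPM in shEZH2, and in EOL-1 it was at 70.4 and 70.7 CPM in sgEV against 26.1 and 27.8 CPM in sgEZH2. MYC transcript was higher, not lower, in both guide groups labelled sgcMyc: it was at 658 and 660 CPM in sgEV, at 866 and 872 CPM with guide 1 and at 818 and 822 CPM with guide 5, so a loss of MYC cannot be read from these RNA values. Counts assigned to genes ran from 13313052 to 16274568 a library in MV4;11 and from 24574102 to 30256823 in EOL-1. Of 8 haematopoietic and myeloid markers 7 had a row, with summed levels of 709 to 1189 CPM over all libraries. Of 6 eosinophil markers none had a row in the EOL-1 table, so that line's label could not be checked with them, and 2 had one in MV4;11, with summed levels of at most 2.30 CPM.

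HLA-B, HLA-C and HLA-E are close paralogs, and the deposited estimated counts could split reads among them. B2M had whole-number counts in 14 of 14 libraries (within 0.0005 of a whole number), whereas HLA-B and HLA-C had them in 2 of 14 each and HLA-E in 0 of 14. PSMB9 had them in 9 of 14, PSMB8 and TAPBP in 2 of 14 each, TAP2 in 1 of 14 and TAP1 in 0 of 14. Of the 50-base words in the longest coding transcript, 6.71% of HLA-C, 5.13% of HLA-E and 2.54% of HLA-B also occurred in another gene of the GENCODE v29 annotation. The share was 35.8% for TAP2, 12.1% for PSMB9, 6.09% for TAPBP, 1.07% for TAP1, and 0 for B2M and PSMB8. PSMB8 had fractional counts in most libraries although no shared word was found for it. The search took exact words of a single transcript, on its own strand, and its annotation may differ from that used for counting. It therefore cannot exclude reads shared with another gene, and the source of the fractional counts was not tested. Apart from B2M, the values of all these genes are uncertain as values of single genes.

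Upstream of the start site, several of these genes hold sequences that match known inducible elements, and those stretches are shown here because the genes that hold them changed in different ways in the comparisons that follow. They come from RefSeq promoter windows on GRCh38.p14, each given 5′ to 3′ on the gene's own strand. They are the reference allele and not the alleles of the 2 lines, whereas the reads were counted on hg19 per the submitters' processing notes. Capitals mark matches on either strand to the core of the interferon-stimulated response element (GAAA, any 2 bases, GAAA), to the NF-kappa-B site or to the CCAAT box (CCAAT). Overlapping matches run together. HLA-B lies at chr6:31357220-31357369 (minus strand), HLA-C at chr6:31272133-31272279 (minus), B2M at chr15:44711357-44711481 (plus), TAP1 at chr6:32853760-32853849 (minus), TAP2 at chr6:32838765-32838814 (minus) and TAPBP at chr6:33314079-33314148 (minus).
HLA-B: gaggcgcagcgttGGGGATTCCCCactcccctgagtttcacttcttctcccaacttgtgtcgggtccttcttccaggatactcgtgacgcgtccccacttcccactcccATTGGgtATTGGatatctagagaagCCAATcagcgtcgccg
HLA-C: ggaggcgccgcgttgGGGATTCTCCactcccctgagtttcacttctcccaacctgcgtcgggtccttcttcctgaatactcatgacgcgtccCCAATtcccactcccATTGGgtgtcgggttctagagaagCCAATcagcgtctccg
B2M: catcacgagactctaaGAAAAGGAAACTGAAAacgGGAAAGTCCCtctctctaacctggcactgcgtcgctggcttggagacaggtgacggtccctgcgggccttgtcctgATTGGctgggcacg
TAP1: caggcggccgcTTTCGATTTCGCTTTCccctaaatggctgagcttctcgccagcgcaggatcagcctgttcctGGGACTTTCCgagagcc
TAP2: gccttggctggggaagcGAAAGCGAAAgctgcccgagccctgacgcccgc
TAPBP: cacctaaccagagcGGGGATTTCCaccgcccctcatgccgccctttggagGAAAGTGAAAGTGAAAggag

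Of the 9 genes, 8 had a window in that table, with 10 windows among them, and no motif was found in more than 1 window of a gene, so each count of genes is also a count of windows out of 10. The interferon-response core was found in the 250 bases before the start of 4 of them (B2M, TAP1, TAP2 and TAPBP), against 3.02% of all 35116 windows. HLA-B and HLA-C had no match to this exact pattern, which passes over variants of the element. An unmarked stretch therefore does not show that a gene lacks such an element. The NF-kappa-B match was found in 5 (HLA-B, HLA-C, B2M, TAP1 and TAPBP), against 9.96%, and CCAAT in 5, against 32.0%. The interferon gamma activated site (TTCNNNGAA) was found in 2, PSMB8 and the TAP1 window that is not shown, against 6.57%. The MYC E-box (CACGTG) was found in 0 of 8, against 6.34%. At that share, 10 windows often hold no match, so this 0 does not show a lack of E-boxes. HLA-B and HLA-C were alike upstream, with 226 of 254 aligned columns identical. TAP1 and PSMB9 are transcribed away from each other from start sites 487 bases apart. A match describes the letters in the window and nothing about a factor bound there.

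With sgEZH2 in EOL-1, transcripts of 8 of the 9 genes rose and none fell, whereas over all genes tested 15.1% rose and 11.8% fell (edgeR's quasi-likelihood test with Benjamini-Hochberg adjustment over all genes, adjusted p under 0.05, used throughout). The classical heavy chains HLA-B and HLA-C and the immunoproteasome subunit PSMB9 rose most. The transporter and loading genes rose less, and TAPBP alone did not pass the test. The median log2 fold change of the 9 genes was 0.55, beside 0.01 over all genes tested.

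HLA-B, a classical heavy chain, was at 604 and 605 CPM in the EOL-1 controls and at 1397 and 1515 CPM with sgEZH2. Both targeted libraries lay far above both controls, a log2 fold change of 1.27 (SE 0.04, adjusted p = 2.13e-14), or 2.41-fold. HLA-C, the other classical heavy chain measured here, went from 630 and 632 CPM to 1376 and 1417 CPM, a log2 fold change of 1.15 (adjusted p = 5.63e-15). HLA-E, the non-classical heavy chain that presents leader peptides to the natural killer receptor CD94/NKG2A, rose less, from 228 and 232 CPM to 352 and 363 CPM (log2 fold change 0.64, adjusted p = 2.49e-11). B2M, the light chain shared by all of them, rose the least among those that passed the test, from 938 CPM in both controls to 1181 and 1223 CPM (0.36, SE 0.03, adjusted p = 9.61e-08). The summed counts of the 3 heavy chains over the B2M count accordingly went from 1.56 and 1.57 to 2.65 and 2.69, a ratio read only across libraries because it is not corrected for transcript length.

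The transporter subunits moved together in EOL-1. TAP1 rose from 68.6 and 70.4 CPM to 101 and 102 CPM (log2 fold change 0.55, SE 0.04, adjusted p = 9.61e-09), and TAP2 from 84.8 and 96.0 CPM to 121 and 129 CPM (0.46, SE 0.06, adjusted p = 6.43e-05). The ratio of TAP1 to TAP2 counts was 0.809 and 0.734 in the controls and 0.833 and 0.795 with sgEZH2, so the 2 groups overlapped. TAPBP, which bridges the transporter and the empty heavy chain, was at 118 and 119 CPM against 125 and 127 CPM, with a log2 fold change of 0.09 (SE 0.04, adjusted p = 0.101).

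Among the immunoproteasome subunits in EOL-1, PSMB8 (beta-5i) went from 183 and 184 CPM to 257 and 279 CPM, a log2 fold change of 0.55 (adjusted p = 2.86e-09). PSMB9 (beta-1i) went from 14.7 and 15.8 CPM to 31.1 and 32.7 CPM, a log2 fold change of 1.06 (SE 0.07, adjusted p = 8.49e-10). None of the 3 constitutive catalytic subunits passed the test. PSMB5, the counterpart of PSMB8, had a log2 fold change of -0.08 (adjusted p = 0.209). PSMB6, the counterpart of PSMB9, had -0.05 (adjusted p = 0.407), and PSMB7, that of PSMB10, had -0.03 (adjusted p = 0.666). PSMB8 counts over PSMB5 counts therefore went from 1.66 and 1.67 to 2.56 and 2.58, and PSMB9 over PSMB6 from 0.176 and 0.194 to 0.401 in both libraries. PSMB10 (beta-2i), the remaining inducible subunit, rose by a log2 fold change of 0.21 (adjusted p = 0.00102), and its ratio to PSMB7 went from 0.695 and 0.735 to 0.837 and 0.849.

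**Figure D1:**
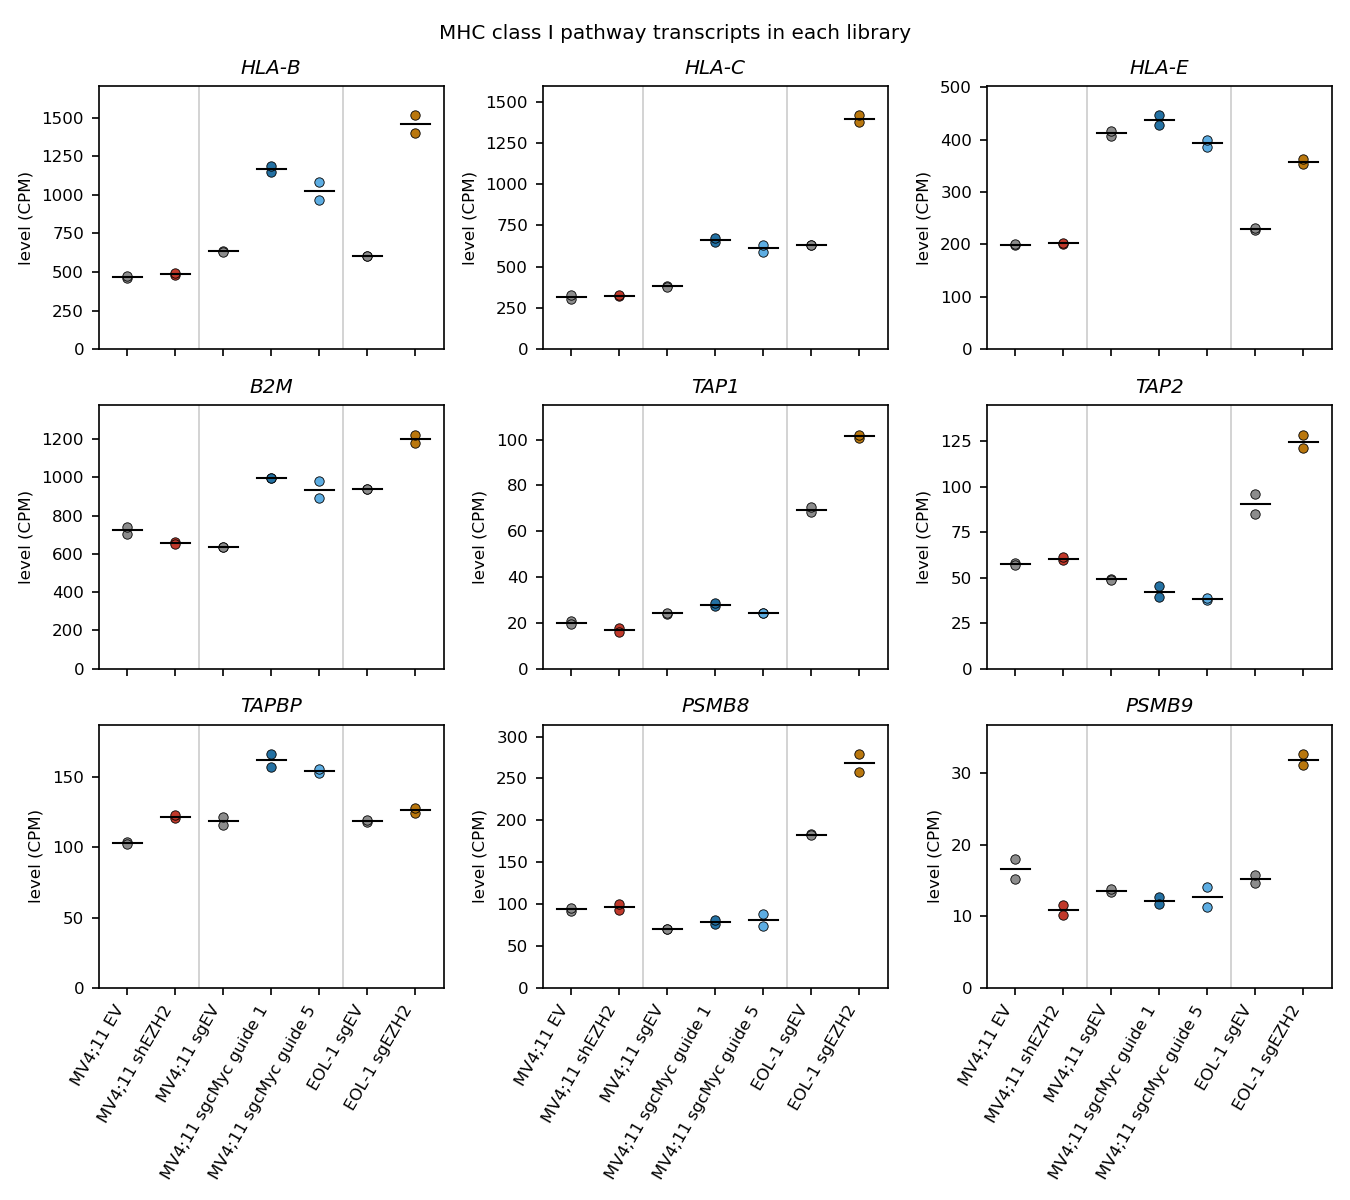
Level of each of the 9 transcripts in CPM (vertical axes, linear, from 0) in each library (points) of the 7 groups, with bars at group means and vertical lines between the 3 separately normalised tables. HLA-B in EOL-1 goes from about 605 CPM in the controls to 1397 and 1515 CPM with sgEZH2, while in MV4;11 the EV and shEZH2 libraries lie between 459 and 495 CPM.

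With shEZH2 in MV4;11, the heavy chains did not pass the test, and of the 9 genes 1 rose and 2 fell. Over all genes tested 13.4% rose and 14.2% fell, so these counts are close to the background. HLA-B was at 459 and 472 CPM in EV and at 481 and 495 CPM in shEZH2, a small gap with a log2 fold change of 0.07 (SE 0.04, adjusted p = 0.221). HLA-C was at 305 and 329 CPM against 324 and 328 CPM, so the groups overlapped (0.04, adjusted p = 0.554). HLA-E was at 199.6 ± 0.53 CPM in EV (SD, n = 2) against 202 ± 2.23 CPM in shEZH2, with both shEZH2 libraries just above (0.02, adjusted p = 0.789). The upper ends of the approximate 95% intervals were 0.14, 0.13 and 0.09 for these 3 log2 fold changes.

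The genes that passed the test with the EZH2 hairpin were TAPBP, B2M and PSMB9. TAPBP rose from 102 and 103 CPM to 121 and 122 CPM (log2 fold change 0.24, SE 0.05, adjusted p = 0.00253). Scaled to the spike-in RNAs of the MV4;11 tables, its log2 fold change was 0.20 and the call was lost (adjusted p = 0.144). B2M fell, from 707 and 742 CPM to 660 and 651 CPM (-0.14, adjusted p = 0.0189). Without shEZH2 replicate 1 or replicate 2 its log2 fold change was of the same size (-0.15 and -0.13), with the call lost (adjusted p = 0.174 and 0.256). PSMB9 fell from 15.3 and 18.05 CPM to 10.2 and 11.6 CPM, with no overlap (-0.61, SE 0.12, adjusted p = 0.00291), the opposite direction to EOL-1.

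TAP1, TAP2 and PSMB8 did not pass the test with shEZH2. TAP1 was at 19.4 and 20.8 CPM in EV and at 16.2 and 17.9 CPM in shEZH2 (log2 fold change -0.24, SE 0.09, adjusted p = 0.0764). TAP2 was at 57.2 and 58.0 CPM against 59.8 and 61.1 CPM (0.07, adjusted p = 0.385). PSMB8 overlapped, with 91.7 and 96.1 CPM against 92.8 and 99.99 CPM (0.04, adjusted p = 0.658). PSMB9 counts over PSMB6 counts went from 0.227 and 0.266 to 0.149 and 0.166, and PSMB10 over PSMB7 from 1.18 and 1.19 to 0.951 and 0.962, so these ratios were lower with the hairpin where those of EOL-1 were higher with the guide. PSMB7 itself rose (log2 fold change 0.19, adjusted p = 0.016), as did PSMB5 (0.15, adjusted p = 0.0447). Both calls were lost under DESeq2 (adjusted p = 0.0846 and 0.323), under spike-in scaling (0.15 and 0.11, adjusted p = 0.25 and 0.441), without shEZH2 replicate 1 (0.18 and 0.15, adjusted p = 0.133 and 0.233) and without shEZH2 replicate 2 (0.21 and 0.16, adjusted p = 0.0681 and 0.217). The PSMB5 call was also lost without EV replicate 1 (0.13, adjusted p = 0.0721).

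The difference between the EZH2 effects of the 2 lines was tested in a fit over both tables, as the EOL-1 effect minus the MV4;11 effect. It was positive for 8 of the 9 genes and negative for 1, where over all genes tested 14.1% were called positive and 12.5% negative. It was largest among the 9 for PSMB9, at 1.66 on the log2 scale (SE 0.13, adjusted p = 2.24e-07), followed by HLA-B at 1.19 and HLA-C at 1.10. It was 0.77 for TAP1, 0.61 for HLA-E, 0.50 for PSMB8, 0.49 for B2M and 0.39 for TAP2. TAPBP had the negative difference, -0.17 (adjusted p = 0.0331), which DESeq2 did not call (adjusted p = 0.192). The lines also differ in the way EZH2 was targeted, in the EZH2 transcript left and in the table, so the line and the method cannot be told apart.

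**Figure D2:**
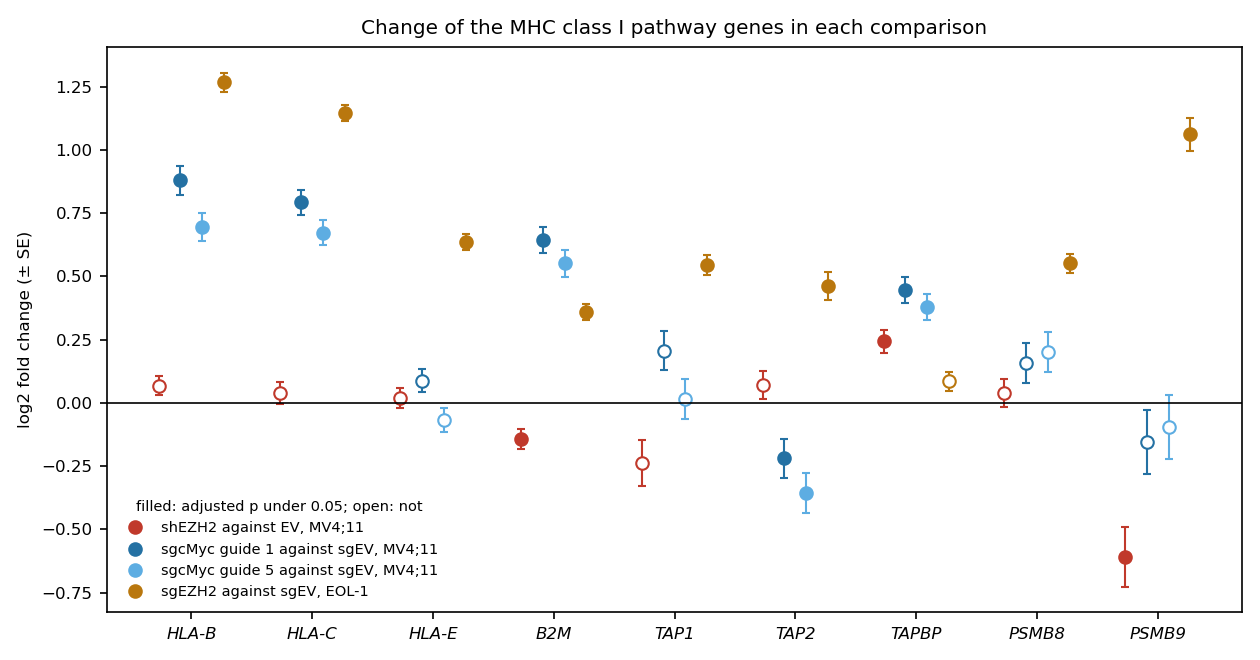
Log2 fold change (vertical axis) of each of the 9 genes against the control of its own table, with bars of 1 SE; filled points passed the adjusted p threshold of 0.05. HLA-B stands at 1.27 in EOL-1 with sgEZH2, at 0.88 and 0.69 with the sgcMyc guides and at 0.07 with shEZH2, and PSMB9 at 1.06 in EOL-1 and at -0.61 with shEZH2.

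In the libraries labelled sgcMyc, the classical heavy chains, B2M and TAPBP rose with both guides, TAP2 fell, and HLA-E, TAP1, PSMB8 and PSMB9 did not pass the test. Over the mean of both guides, 4 of the 9 genes were higher and 1 was lower, where 18.6% of all genes tested were higher and 18.7% lower. Guide 1 and guide 5 share the sgEV libraries, so their values stand side by side and do not count as 2 independent results. For each guide alone the counts were also 4 and 1, beside 16.2% higher and 16.0% lower of all genes with guide 1, and 15.7% and 15.5% with guide 5. With libraries scaled to the spike-ins the median gene moved by 0.11 on the log2 scale and 72.8% of called genes were higher, against 49.8% with the scaling used here.

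HLA-B was at 637 and 631 CPM in sgEV, at 1146 and 1188 CPM with guide 1 and at 967 and 1085 CPM with guide 5. All 4 targeted libraries were above both controls, with log2 fold changes of 0.88 for guide 1 (adjusted p = 1.63e-07) and 0.69 for guide 5 (adjusted p = 1.66e-06). HLA-C was at 386 and 380 CPM in sgEV, at 653 and 676 CPM with guide 1 and at 588 and 634 CPM with guide 5, or 0.79 and 0.67 on the log2 scale. B2M rose alongside them, from 638 CPM in both controls to 999 and 997 CPM with guide 1 (0.65) and to 891 and 978 CPM with guide 5 (0.55). The ratio of summed heavy chain to B2M counts was 2.24 in both controls and 2.17 to 2.32 in the targeted libraries, so the groups overlapped. HLA-E was at 406 and 417 CPM in sgEV, at 428 and 446 CPM with guide 1 and at 386 and 399 CPM with guide 5. Its log2 fold change was 0.01 over both guides (SE 0.04, adjusted p = 0.875).

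TAPBP was at 116 and 121 CPM in sgEV, at 166 and 157 CPM with guide 1 and at 153 and 155 CPM with guide 5, a log2 fold change of 0.41 over both guides (adjusted p = 1.56e-05). TAP2 was at 49.6 and 48.9 CPM in sgEV, at 39.3 and 45.3 CPM with guide 1 and at 37.8 and 39.1 CPM with guide 5 (-0.29, SE 0.07, adjusted p = 0.00456). The TAP2 call was lost without sgEV replicate 1 (log2 fold change -0.28, adjusted p = 0.0675) and without sgEV replicate 2 (-0.30, adjusted p = 0.0534), with values of the same size, and under spike-in scaling (log2 fold change -0.17, adjusted p = 0.136). For guide 1 alone it was near the threshold (-0.22, adjusted p = 0.0446), and without guide 1 replicate 1 it was -0.12 (adjusted p = 0.367). TAP1 was at 24.0 and 24.4 CPM in sgEV, at 27.2 and 28.6 CPM with guide 1 and at 24.4 CPM in both libraries of guide 5, so the guide 5 libraries lay just above the controls, with log2 fold changes of 0.21 for guide 1 and 0.01 for guide 5. TAP1 over TAP2 counts went from 0.484 and 0.498 in sgEV to 0.625 to 0.693 in the targeted libraries.

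PSMB8 was at 70.9 and 70.6 CPM in sgEV and above both in all 4 targeted libraries, at 76.5 and 81.4 CPM with guide 1 and at 73.9 and 88.8 CPM with guide 5. Its log2 fold change over both guides was 0.18 (adjusted p = 0.0599), and 0.29 with a call under spike-in scaling (adjusted p = 0.0115). Without guide 5 replicate 1 the log2 fold change was 0.24 and was also called (adjusted p = 0.000101). PSMB9 was at 13.4 and 13.9 CPM in sgEV, at 12.7 and 11.7 CPM with guide 1 and at 11.4 and 14.1 CPM with guide 5 (-0.13, adjusted p = 0.398). PSMB10 rose (0.30, adjusted p = 0.00348, and 0.28 with adjusted p = 0.0638 without sgEV replicate 1), and its ratio to PSMB7 went from 0.979 and 0.987 to 1.22 to 1.30 in the targeted libraries. PSMB8 over PSMB5 was 1.14 and 1.19 in sgEV, 1.32 and 1.35 with guide 1, and 1.19 and 1.22 with guide 5, so only the guide 1 libraries were clear of the controls. PSMB9 over PSMB6 went the other way, from 0.2697 and 0.2877 in sgEV to 0.2527 and 0.2155 with guide 1. With guide 5 it was 0.2057 and 0.2276, so all 4 targeted libraries lay below both controls. PSMB6, the denominator, was at 48.2 and 49.5 CPM in sgEV. It was higher in the targeted libraries, at 50.4 and 54.2 CPM with guide 1 and at 55.2 and 62.0 CPM with guide 5. The lower ratio alone therefore does not show a fall of PSMB9. Of the 3 constitutive subunits, 1 was called higher and 0 lower over both guides, beside 18.6% and 18.7% of all genes.

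**Figure D3:**
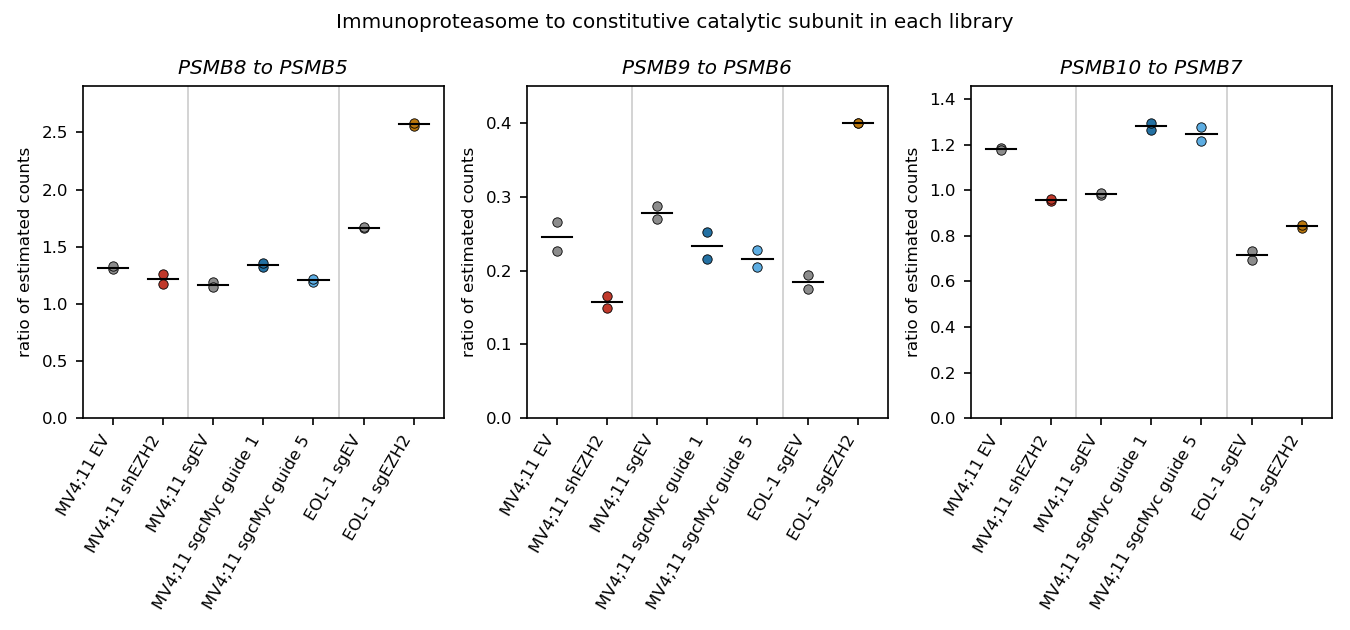
Ratio of estimated counts of each immunoproteasome subunit to its constitutive counterpart (vertical axes, linear, from 0) in each library (points), with bars at group means; ratios are not corrected for transcript length. PSMB8 to PSMB5 goes from 1.66 and 1.67 to 2.56 and 2.58 with sgEZH2 in EOL-1, and PSMB9 to PSMB6 from 0.227 and 0.266 to 0.149 and 0.166 with shEZH2 in MV4;11.

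Between guide 5 and guide 1, none of the 9 genes passed edgeR's test of the difference, where 0.409% of all genes did. The guide 5 minus guide 1 differences ran from -0.19 for HLA-B and TAP1 to 0.06 for PSMB9. The 2 libraries of guide 5 also differed from each other more than those of any other group over all genes (5.47 times the counting noise), with HLA-B at 967 and 1085 CPM. Without guide 5 replicate 2, HLA-B, HLA-C, HLA-E and B2M were called lower with guide 5 than with guide 1, with differences of -0.27, -0.17, -0.17 and -0.16. Without guide 5 replicate 1, HLA-B (-0.11) and HLA-E (-0.13) were.

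Ordered by mean level over the 7 groups, HLA-B, HLA-C, B2M, TAP1, TAP2, PSMB8 and PSMB9 were highest in EOL-1 with sgEZH2. HLA-E was highest with guide 1 (437 CPM) and TAPBP also (162 CPM). The tables were normalised separately, so levels across tables are descriptions. HLA-B ran from EV (465 CPM) through shEZH2, EOL-1 sgEV, MV4;11 sgEV, guide 5 and guide 1 to sgEZH2 (1456 CPM), with no overlap between neighbours. For HLA-C, EV (317 CPM) and shEZH2 overlapped, as did guide 5 and EOL-1 sgEV, with sgEZH2 at the top (1396 CPM). HLA-E ran from EV (199.6 CPM) through shEZH2, EOL-1 sgEV, sgEZH2, guide 5 and MV4;11 sgEV to guide 1, with no overlap between neighbours. The B2M order ran from MV4;11 sgEV (638 CPM) through shEZH2, EV, guide 5, EOL-1 sgEV and guide 1 to sgEZH2 (1202 CPM), and guide 5 overlapped with EOL-1 sgEV.

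TAP1, TAP2 and PSMB8 were lower in every MV4;11 group than in EOL-1. TAP1 ran from shEZH2 (17.0 CPM) through EV, sgEV, guide 5 and guide 1 to EOL-1 sgEV (69.5 CPM) and sgEZH2 (101 CPM), with no overlap between neighbours. TAP2 was lowest with guide 5 (38.5 CPM), followed by guide 1, sgEV, EV, shEZH2, EOL-1 sgEV (90.4 CPM) and sgEZH2 (125 CPM), again with no overlap. TAPBP varied least, from 103 CPM in EV through both sgEV groups, which overlapped, shEZH2, sgEZH2 and guide 5 to guide 1. PSMB8 ran from MV4;11 sgEV (70.7 CPM) through guide 1, guide 5, EV and shEZH2 to EOL-1 sgEV (183 CPM) and sgEZH2 (268 CPM), with guide 1 overlapping guide 5 and EV overlapping shEZH2. PSMB9 was lowest in shEZH2 (10.9 CPM), followed by guide 1, guide 5, MV4;11 sgEV, EOL-1 sgEV and EV (16.7 CPM), and its highest level was 31.9 CPM with sgEZH2. Of these neighbours, guide 1 and guide 5, guide 5 and sgEV, and EOL-1 sgEV and EV overlapped.

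The controls differed among themselves. HLA-E in the sgEV libraries of MV4;11 was at 2.06 times its level in EV of the same line, more than any change of HLA-E within a table. TAP1 in EOL-1 sgEV was at 3.46 times its level in MV4;11 EV, PSMB8 at 1.95 times and PSMB9 at 0.914 times. HLA-B in the 3 control groups lay between 465 and 634 CPM.

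The 5 genes whose profile was most like the mean of the 9, by Pearson's r over the 14 libraries of log2(CPM + 1) minus the control mean of the same table, among 12421 genes, were CAPN2 (0.984), PRTN3 (0.977), ZNF385A (0.976), HLA-H (0.973) and TFEC (0.973). CAPN2 encodes the catalytic subunit of calpain-2, PRTN3 the neutrophil granule protease proteinase 3, and HLA-H is a class I pseudogene that could take reads of the heavy chains. These values share libraries and controls and are descriptions. The 9 genes themselves followed their mean unevenly, with r of 0.261 for TAPBP, 0.422 for TAP2, 0.695 for B2M and up to 0.966 for HLA-B. The mean therefore does not stand for each of the 9 alike. PRTN3 had log2 fold changes of 3.09 in EOL-1, 1.22 over both sgcMyc guides and 0.24 with shEZH2, and TFEC of 2.46, 1.09 and -0.02.

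Of the non-classical heavy chains outside the 9, HLA-G rose in EOL-1 (log2 fold change 1.13, adjusted p = 2.94e-10) and over both sgcMyc guides (0.73, adjusted p = 4.79e-05), and had -0.04 with shEZH2 (adjusted p = 0.844). Its mean in EOL-1 sgEV was 14.4 CPM, beside 605 CPM for HLA-B. Words shared with other genes were not counted for HLA-G or HLA-F. Whether reads of the classical heavy chains enter their values was not tested. HLA-F in EOL-1 was below 1 CPM in every library, at 0.07 and 0.33 CPM against 0.50 and 0.71 CPM, with a call close to the threshold (1.64, SE 0.59, adjusted p = 0.0477). Leaving out 1 library gave 0.87 to 3.12: the call was lost without sgEV replicate 2 (0.87, adjusted p = 0.459), sgEZH2 replicate 1 (1.34, adjusted p = 0.272) or sgEZH2 replicate 2 (1.86, adjusted p = 0.0703), and the value was 3.12 without sgEV replicate 1. DESeq2 did not call it either (adjusted p = 0.298).

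Among 5 peptide supply genes outside the 9, 2 rose and 0 fell in EOL-1, 1 rose and 1 fell over both sgcMyc guides, and 1 rose and 2 fell with shEZH2. Beside these counts and those of the lists that follow, 15.1% of all genes tested rose and 11.8% fell in EOL-1, 18.6% and 18.7% over both guides, and 13.4% and 14.2% with shEZH2, so 1 gene of 5 is near the background. ERAP2, an aminopeptidase that trims peptides in the endoplasmic reticulum, fell from 16.7 and 16.9 CPM in sgEV to between 6.13 and 7.21 CPM in the 4 sgcMyc libraries (log2 fold change -1.28, adjusted p = 1.14e-06). It also fell with shEZH2, from 16.9 and 20.03 CPM to 7.49 and 8.20 CPM (-1.24, adjusted p = 2.49e-05). In EOL-1 it was at 45.4 and 45.5 CPM against 45.7 and 47.0 CPM (0.03, adjusted p = 0.74). ERAP1, its paralog, rose with shEZH2 (0.41, adjusted p = 0.000537) and in EOL-1 (0.22, adjusted p = 0.00895). The EOL-1 value was 0.13 without sgEV replicate 2 (adjusted p = 0.239) and 0.17 without sgEZH2 replicate 1 (adjusted p = 0.0595), and DESeq2 did not call it (adjusted p = 0.113). PSME2, a subunit of the proteasome activator PA28, fell with shEZH2 (-0.34, adjusted p = 0.00136).

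Of 5 loading and quality control genes of the endoplasmic reticulum, 2 rose and 3 fell with shEZH2, 3 rose and 0 fell over both sgcMyc guides, and 2 rose and 0 fell in EOL-1. Calreticulin (CALR), the chaperone of the peptide loading complex, rose from 589 and 597 CPM to between 881 and 931 CPM in the sgcMyc libraries (0.60, adjusted p = 1.87e-07), and by 0.16 with shEZH2 (adjusted p = 0.00746). The latter call was lost under spike-in scaling (0.11, adjusted p = 0.196) and without shEZH2 replicate 1 (0.15, adjusted p = 0.181) or replicate 2 (0.17, adjusted p = 0.115). PDIA3, the disulphide isomerase bound to tapasin, rose over both guides (0.34, adjusted p = 2.36e-05) and fell with shEZH2 (-0.41, adjusted p = 2.23e-05). TAPBPL, a tapasin-like peptide editor, fell with shEZH2 (-0.48) and rose over both guides (0.28) and in EOL-1 (0.40). DESeq2 called none of these 3 (adjusted p = 0.129, 0.309 and 0.166). Over both guides the value was 0.18 without sgEV replicate 1 (adjusted p = 0.358) and 0.40 without sgEV replicate 2 (adjusted p = 0.0579), and the call was lost as well without guide 1 replicate 1 or replicate 2 and under upper quartile scaling. Calnexin (CANX), which holds new heavy chains, fell with shEZH2 (-0.48, adjusted p = 1.17e-05).

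Of 15 transcriptional regulators of class I genes, 4 rose and 1 fell in EOL-1, 4 rose and 1 fell over both sgcMyc guides, and 2 rose and 2 fell with shEZH2. NLRC5, the class I coactivator, rose in EOL-1 from 14.5 and 15.8 CPM to 20.2 and 20.9 CPM (0.44, adjusted p = 0.000196) and over both guides (0.26, adjusted p = 0.0478), and had 0.21 with shEZH2 (adjusted p = 0.0924). The call over both guides was lost under DESeq2 (adjusted p = 0.259), without a filter, without the robust step and under spike-in or upper quartile scaling (adjusted p = 0.0516 to 0.0567). It was lost too without sgEV replicate 1 (0.35, adjusted p = 0.0899), sgEV replicate 2 (0.18, adjusted p = 0.357), guide 1 replicate 1 or guide 5 replicate 1 (0.21 in both, adjusted p = 0.152 and 0.067). IRF1, an interferon-induced activator, rose in EOL-1 (0.41, adjusted p = 8.03e-06) and fell over both guides (-0.33, adjusted p = 0.000869, and -0.22 with adjusted p = 0.0589 under spike-in scaling) and with shEZH2 (-0.44, adjusted p = 0.000883). STAT2, a transcription factor of type I interferon signalling, fell with shEZH2 (-0.59, adjusted p = 0.000257). IRF8, a myeloid member of the interferon regulatory factors, rose in all 3 comparisons, by log2 fold changes of 0.54, 0.67 and 0.55 in the same order. RFX5, a promoter-binding partner of NLRC5, rose in all 3 as well (0.14, 0.14 and 0.18), NFYA rose over both guides (0.14), and RELA was the regulator that fell in EOL-1 (-0.13, adjusted p = 0.0476). DESeq2 called none of these 5 changes (RFX5 adjusted p = 0.335, 0.257 and 0.171, NFYA 0.201, RELA 0.285). Leaving out 1 library ended each of them as well, with the highest adjusted p in these fits: RFX5 was 0.10 in EOL-1 without sgEV replicate 2 (adjusted p = 0.364), 0.10 over both guides without sgEV replicate 2 (adjusted p = 0.387) and 0.16 with shEZH2 without shEZH2 replicate 1 (adjusted p = 0.2), NFYA was 0.12 without sgEV replicate 2 (adjusted p = 0.247) and RELA was -0.10 without EOL-1 sgEV replicate 1 (adjusted p = 0.373).

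Of 6 genes of the interferon gamma receptor pathway, 3 rose and 0 fell in EOL-1, 3 rose and 0 fell over both guides, and 2 rose and 1 fell with shEZH2. IFNGR1, the ligand-binding receptor chain, rose in all 3 comparisons (0.25, 0.23 and 0.43). JAK2, a kinase of the pathway, rose in EOL-1 (0.39) and over both guides (0.30) and fell with shEZH2 (-0.26). That fall, the 1 in its count, lost its call under DESeq2 (adjusted p = 0.186), under spike-in scaling (-0.31, adjusted p = 0.0779), without EV replicate 1 (-0.19, adjusted p = 0.0693) and without shEZH2 replicate 2 (-0.19, adjusted p = 0.175). JAK1 rose over both guides (0.27), the feedback inhibitor SOCS1 in EOL-1 (0.19) and the phosphatase PTPN2 with shEZH2 (0.26). DESeq2 did not call SOCS1 (adjusted p = 0.261) or PTPN2 (adjusted p = 0.0936). SOCS1 was 0.15 without sgEV replicate 1 (adjusted p = 0.253), and PTPN2 0.21 under spike-in scaling (adjusted p = 0.125).

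Most changes of interferon-stimulated genes outside the pathway were falls in the sgcMyc libraries. Of 15 listed, 13 were tested, of which 1 rose and 8 fell over both guides, beside 18.6% and 18.7% of all genes, with a median log2 fold change of -0.98. The genes that fell included OAS2, a sensor of double-stranded RNA (-1.45, adjusted p = 2.44e-07), IFIT2 (-1.96, adjusted p = 1.29e-05), the guanylate-binding protein GBP2 (-1.23) and the ISG15-conjugating enzyme UBE2L6 (-0.98). BST2 (tetherin) was the 1 that rose (0.29). With shEZH2, 0 rose and 7 fell of 10 tested, beside 13.4% and 14.2% of all genes, among them BST2 (-0.59), GBP2 (-2.42), IFI6 (-1.31) and OAS2 (-1.31). GBP2 was low, at 3.50 and 6.24 CPM in EV and at 0.756 and 1.06 CPM in shEZH2. Leaving out 1 library gave it -2.775 to -1.941. IFI6 and OAS2 had means of 6.15 and 6.34 CPM in EV and of 2.47 and 2.56 CPM in shEZH2. In EOL-1, 3 rose (GBP2 by 1.01, GBP1 by 1.00 and IFI35 by 0.41) and 2 fell (IFITM1, -1.08, and UBE2L6, -0.19) of 9 tested, beside 15.1% and 11.8% of all genes. Of these 5, DESeq2 did not call GBP1 (adjusted p = 0.0595), IFI35 (adjusted p = 0.189) or UBE2L6 (adjusted p = 0.189). IFI35 was 0.31 without sgEZH2 replicate 2 (adjusted p = 0.0955), and UBE2L6 -0.11 without sgEZH2 replicate 1 (adjusted p = 0.195) and -0.17 without sgEV replicate 1 (adjusted p = 0.136).

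Myeloid markers moved with the class I genes in EOL-1. The summed level of the 7 haematopoietic and myeloid markers with a row was 709 and 729 CPM in sgEV and 897 and 905 CPM with sgEZH2, with CSF1R at 2.27 and 3.05 CPM against 35.6 and 36.9 CPM and MPO at 18.3 and 18.9 CPM against 59.1 and 61.5 CPM. Of the 7, 6 rose and 0 fell, beside 15.1% and 11.8% of all genes. PTPRC, the pan-leukocyte marker CD45, was the exception, at 181 ± 0.16 CPM in sgEV and 169 ± 7.75 CPM with sgEZH2 (SD, n = 2; log2 fold change -0.10, adjusted p = 0.0547 by edgeR). The B cell marker CD79A, the 1 of its list with a row, rose from 2.60 and 2.92 CPM to 5.38 and 6.37 CPM (1.09, adjusted p = 3.28e-05 by edgeR). NKG7, the 1 of the T and NK cell markers with a row, was called lower. It went from 109 and 112 CPM to 90.1 and 98.4 CPM (log2 fold change -0.23). The summed level of the 7 haematopoietic and myeloid markers was 774 to 794 CPM in shEZH2 against 810 to 832 CPM in EV, and 1142 to 1189 CPM in the sgcMyc libraries against 1097 to 1111 CPM in sgEV. Of the 7, 1 rose and 3 fell with shEZH2, beside 13.4% and 14.2% of all genes. Over both guides 4 rose and 1 fell, beside 18.6% and 18.7%. No marker of this list was at 0 in a group. The part of these markers in the class I values was not tested.

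**Figure D4:**
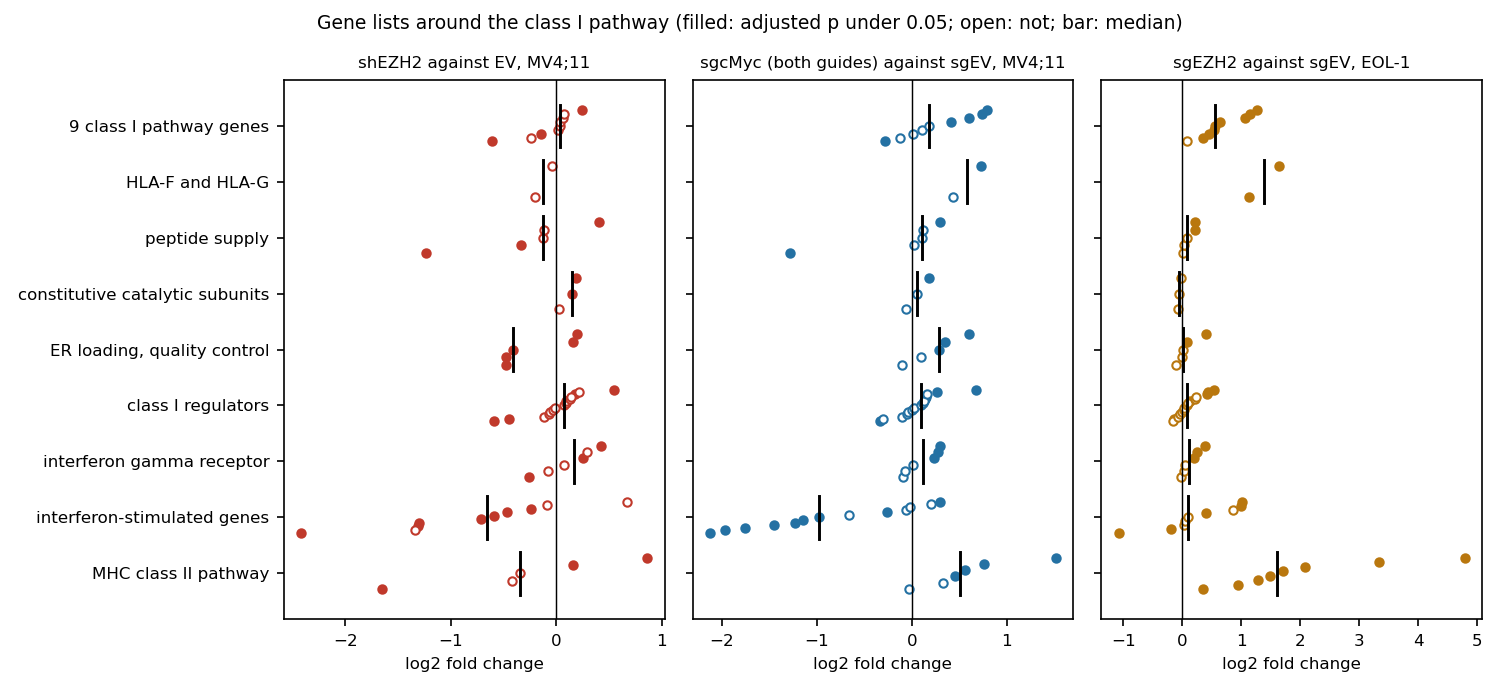
Log2 fold changes (horizontal axes) of the 9 class I pathway genes and of gene lists around them in 3 comparisons; each point is 1 gene, filled where adjusted p was under 0.05, and bars mark list medians. The 9 genes have medians of 0.04, 0.18 and 0.55 from left to right, and the interferon-stimulated genes of -0.65, -0.98 and 0.09.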

How the data were processed

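The 14 libraries, made from total RNA, fall into 3 deposited tables, 1 for each control and its targeted groups. The authors deposited estimated counts per gene and library, made with RSEM and DESeq on hg19 per the submitters' processing notes; these notes name no aligner, annotation or version. The deposited tables also hold log2 normalised values, used in 1 alternative, and the authors' baseMean signal, not used here. Table columns were matched to samples by the names in their headers.

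The estimated counts were rounded to whole numbers and 56 spike-in rows of the MV4;11 tables (1.06 to 1.30% of counts) were kept out of library sizes. Each table holds 18 symbols turned into dates, so some genes were not matched. edgeR 4.0.16 in R 4.3.3 filtered genes (filterByExpr), scaled libraries (TMM) and fitted each table without a replicate block (glmQLFit with the robust step, glmQLFTest), with p-values adjusted by Benjamini-Hochberg over all genes tested and a threshold of 0.05. The SE is the log2 fold change over the root of the test statistic, and CPM are counts scaled to the TMM-adjusted library size. The scripts were tested on simulated data. Libraries of a group differed by 1.47 to 5.47 times the counting noise (chi-square per degree of freedom), so none was treated as a repeat deposit of another; this does not show separate cultures. The approximate 95% intervals and p-values cover the spread between 2 libraries a group only.

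Named were the 9 genes, the targeted genes, and up to 4 called genes a list and comparison with the smallest adjusted p. The 3 constitutive proteasome subunits and the 5 genes of most similar profile were named as well. Genes that complete a count of 5 or fewer, and the markers CSF1R, MPO, PTPRC, CD79A and NKG7, were chosen after their values were seen. The 9 genes and all lists were chosen with earlier results of these data known. The lists' counts leave out 2 genes that are not reported here. Alternatives were DESeq2 1.42.0, limma 3.58.1 on the log2 values, other filters and scalings, no robust step, a replicate block and leaving out each library. The replicate numbers gave no clear sign of pairing in the check given in the closing section, which cannot exclude it.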

Additional observations from a re-analysis of the deposited data

Results flagged for a closer look

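For each of the 9 genes the EZH2 effect differed between the lines by the interaction test of edgeR (EOL-1 effect minus MV4;11 effect, adjusted p under 0.05, 14.1% of all genes positive and 12.5% negative). The difference in log2 fold change was 1.19 for HLA-B, 1.10 for HLA-C and 0.61 for HLA-E. It was 0.49 for B2M, 0.77 for TAP1, 0.39 for TAP2, 0.50 for PSMB8 and 1.66 for PSMB9. It was -0.17 for TAPBP, whose call was lost under DESeq2, under upper quartile scaling and in 7 of 8 fits that left out 1 library. The line, the way EZH2 was targeted and the table cannot be told apart.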

How the results depend on the processing

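Over all alternatives, the log2 fold changes of the 9 genes kept direction and call in 797 of 855 results, lost the call in 24, gained one in 22 and changed sign in 12. Under spike-in scaling the count of genes higher with shEZH2 was 0 and the counts lower were 0 over both guides, with guide 1 and with guide 5. Guide 1 had 0 lower also under DESeq2, limma and no robust step, and the negative interaction count was 0 under DESeq2 and upper quartile scaling. Leaving out 1 library gave 1 to 2 higher and 1 to 2 lower with shEZH2, 0 to 1 lower over both guides, 4 to 7 higher and 0 to 1 lower with guide 1, 0 to 1 lower with guide 5, 0 to 4 lower between guides and 0 to 1 negative in the interaction; the cause was not tested. A group left with 1 library is assumed there to vary like the others. Signs changed under spike-in scaling for shEZH2 HLA-C (-0.00529), HLA-E (-0.0300), PSMB8 (-0.00825) and PSMB6 (-0.0165), for PSMB7 over both guides (0.0472), for guide 1 PSMB5 (0.0467) and PSMB7 (0.0016), and for guide 5 HLA-E (0.0799), PSMB9 (0.0454), CANX (0.0182) and PSMB7 (0.0929). Leaving out 1 library crossed 0 for shEZH2 HLA-C (-0.0147 to 0.0948) and PSMB8 (-0.0138 to 0.0916), for HLA-E over both guides (-0.00769 to 0.0290), for guide 5 PSMB9 (-0.254 to 0.0516) and PSMB7 (-0.135 to 0.0331), for guide 5 minus guide 1 PSMB8 (-0.0909 to 0.167), PSMB9 (-0.0995 to 0.207) and PSMB7 (-0.0539 to 0.115), for EOL-1 PSMB7 (-0.0625 to 0.000149) and ERAP2 (-0.00291 to 0.0459), and for shEZH2 HLA-G (-0.211 to 0.113). DESeq2 called 905 genes higher and 939 lower with shEZH2 (edgeR 1824 and 1934), 1635 and 1584 over both guides (2590 and 2613), 1346 and 1279 with guide 1 (2255 and 2233), 1303 and 1245 with guide 5 (2192 and 2162), 1122 and 748 in EOL-1 (2099 and 1639) and 1128 and 913 in the interaction (1904 and 1689). Spike-in scaling called 805 and 1407 with shEZH2 and 3136 and 1169 over both guides, 0 and 1 between guides (11 and 46), and moved the median gene by 0.15 for guide 5.

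The replicate numbers gave no clear sign of pairing. Same-numbered libraries had deviations correlated at 0.07 in the EZH2 hairpin table, -0.02 to 0.09 in the sgcMyc table and -0.12 in EOL-1. With 2 libraries a group, this check cannot exclude that samples were paired. With the replicate block, 2352 genes were higher and 2358 lower with shEZH2, where TAP1 was called (-0.24, adjusted p = 0.0397), and PSMB8 was called over both guides (0.18, adjusted p = 0.0192) and with guide 5 (0.20, adjusted p = 0.0257), while 33 genes were higher and 96 lower with guide 5 than with guide 1. No other of the 9 genes changed its call with the block. In EOL-1 the block gave 2077 and 1699 calls and the crossed pairing, added after seeing the data, 2199 and 1724.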

Other observations

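MHC class II genes, which present peptides from outside the cell, rose in EOL-1 in 8 of 8 tested, where 15.1% of all genes rose, with a median log2 fold change of 1.60. HLA-DPA1 was at 0.79 and 0.80 CPM in sgEV and at 21.7 and 22.4 CPM with sgEZH2 (4.79, adjusted p = 4.46e-15), and HLA-DRA, HLA-DRB1 and the invariant chain CD74 rose by log2 fold changes of 1.28, 1.71 and 0.95. CIITA, the class II coactivator, rose by 0.35. Over both sgcMyc guides 4 of 6 rose and 0 fell, beside 18.6% and 18.7% of all genes. HLA-DRA rose by 1.52, CIITA by 0.76, HLA-DRB1 by 0.56 and CD74 by 0.46. With guide 5 alone 3 rose and 0 fell, beside 15.7% and 15.5%. Of the 6, 2 were called lower with guide 5 than with guide 1, where 0.409% of all genes were called in either direction. Mean levels were low for HLA-DRA (6.97 CPM in sgEV, 25.6 with guide 1, 15.6 with guide 5) and CIITA (2.96, 5.93 and 4.25 CPM). The CIITA call over both guides was lost under DESeq2 (adjusted p = 0.0749) and without sgEV replicate 2 (0.61, adjusted p = 0.0943). With shEZH2, HLA-DRA (0.86) and CD74 (0.16) rose and HLA-DRB1 fell (-1.65), of 5 tested, beside 13.4% and 14.2% of all genes. DESeq2 called neither rise (adjusted p = 0.0974 and 0.0741). HLA-DRA was 0.60 without shEZH2 replicate 2 (adjusted p = 0.115). The CD74 call was lost without shEZH2 replicate 1 (0.18, adjusted p = 0.091), without replicate 2 (0.15, adjusted p = 0.168) and under spike-in scaling (0.12, adjusted p = 0.333).

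Among class I-like molecules, FCGRT, the heavy chain of the neonatal Fc receptor, which also pairs with B2M, was at 5.59 and 5.67 CPM in EOL-1 sgEV and at 14.4 and 17.0 CPM with sgEZH2 (1.47, adjusted p = 4.37e-09). It rose over both sgcMyc guides (1.12, adjusted p = 1.39e-07) and fell with shEZH2 (-2.00, adjusted p = 3.92e-06). CD1D, which presents lipids, rose in EOL-1 (1.60) and over both guides (1.24), and MR1, which presents vitamin B metabolites, rose in EOL-1 (0.89). MICA and MICB, ligands of the natural killer receptor NKG2D, passed the test in none of these 3 comparisons. Of 2 signal peptide proteases with a row, HM13 fell over both guides (-0.22, adjusted p = 0.0013) and SPPL2A rose in EOL-1 (0.29, adjusted p = 0.00542). The HM13 call was lost under spike-in scaling (-0.10, adjusted p = 0.301), and that of SPPL2A under DESeq2 (adjusted p = 0.127) and without sgEV replicate 2 (0.23, adjusted p = 0.1).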
